A study of Mus musculus with 12 samples.

Results

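The genes described here encode enzymes that attach ubiquitin to proteins and enzymes that remove it, measured in the hippocampal CA1 subfield of mice. They were chosen by name: a gene was a member where its single symbol on the array belonged to the Ube2, Usp, Trim, Fbxo, Fbxl or Fbxw families, and 1 Usp gene was left out by the rule. This gave 140 of the 12394 genes measured, namely 27 Ube2, 38 Usp, 39 Trim, 22 Fbxo, 6 Fbxl and 8 Fbxw genes. Each gene was read from 1 probe set, the one with the highest mean over all arrays, and 60 members had more than 1 probe set. Of the 140 members, 13 had an intensity under 32 on all 12 arrays and 17 on some of them. Levels of different genes are not compared, because probe sets differ in brightness.

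Ubiquitin is a small protein that is joined to other proteins by a chain of enzymes. An activating enzyme passes it to a conjugating enzyme (E2), which most Ube2 genes encode, and a ligase (E3) brings the E2 to its target. Most Trim genes encode ligases of the RING type, whereas Fbxo, Fbxl and Fbxw genes encode F-box proteins, the substrate-binding subunits of cullin ligases, and Usp genes encode proteases that take ubiquitin off again. In brain, the system marks damaged and short-lived proteins for the proteasome and adjusts synaptic proteins, signalling complexes and histones.

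CA1 holds pyramidal neurons that are known to be vulnerable to a brief loss of blood flow. The groups were SUMO-KD mice after ischemia, SUMO-KD mice after sham surgery, wild-type mice after ischemia and wild-type mice after sham surgery. In SUMO-KD mice SUMO is knocked down, the small ubiquitin-like modifier, which is related to ubiquitin and is joined to proteins by its own enzymes. The construct, the cells that express it, the age and the sex of the mice are not given in the sources used here. Ischemia was a transient forebrain ischemia of 10 min, and tissue was collected after 3 h of reperfusion. Every group held 3 samples, each a pool of tissue of 2 mice and named here as pool 1, 2 or 3, so that p-values measure the spread between pools. The question set by this layout is how expression differed after ischemia in each genotype, and how it differed between the genotypes.

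As a check of the labels, Sumo3, which encodes one of the modifier proteins, had 1879, 1936 and 1909 intensity units in SUMO-KD ischemia samples and 3436, 3245 and 3518 in wild-type ischemia samples. Sham samples had 1337, 1689 and 1655 units in SUMO-KD mice and 2314, 2247 and 2467 units in wild-type mice. All SUMO-KD samples lay below the wild-type samples of the same surgery. The check rests on 1 probe set of Sumo3, which is marked as shared between transcripts: on the other, dim one the genotype difference was −0.10 after ischemia (adjusted p = 0.701) and 0.05 in sham (adjusted p = 0.883). Arrays correlated with each other at 0.967 to 0.993 over all probe sets, as Pearson correlations. The control probe set for the 3′ part of 18S ribosomal RNA had 2829 to 4127 units on 5 of the 6 ischemia arrays, 6316 on the array of SUMO-KD ischemia pool 2, and 5087 to 7569 on the sham arrays. The 5′ control had 1275 to 1660 units on those 5 ischemia arrays, 4127 on the sixth and 4194 to 6528 on the sham arrays, so that the ratio of 3′ to 5′ signal was 2.06 to 2.78, 1.53 and 1.03 to 1.43. The same ratio for Actb was 1.43 to 1.72 on ischemia arrays and 1.42 to 1.74 on sham arrays. Pan-neuronal markers were present on all arrays, and 0 of 8 were called in any comparison. Their summed intensity was 28170 to 30875 in SUMO-KD ischemia and 27439 to 30885 in SUMO-KD sham samples. In wild-type it was 28355 to 30517 after ischemia and 31058 to 32599 after sham surgery, with all wild-type sham samples above the other groups. The summed intensity of 5 pyramidal and CA1 markers was 3876 to 5533 in SUMO-KD ischemia, 3899 to 6539 in SUMO-KD sham, 4226 to 6262 in wild-type ischemia and 8179 to 10951 in wild-type sham samples. Wild-type sham samples therefore stood above the other groups for these markers. All 5 markers exceeded 32 units on at least 1 array. The part of these shifts in the results below was not tested. In tissue RNA, fewer cells of a type and less RNA per cell cannot be told apart.

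Ischemia changed the expression of a minority of the members in both genotypes, with more rises than falls among those called. In SUMO-KD mice 10 members rose and 6 fell, and in wild-type mice 22 rose and 11 fell, in limma's test with an adjusted p under 0.05 over all 12394 genes. The called share was 11.4% of members in SUMO-KD, where 10.7% of all genes were called, and 23.6% of members in wild-type, where 18.5% of all genes were called. By direction, 7.14% of members were higher in SUMO-KD against 6.08% of all genes, and 15.7% were higher in wild-type against 9.59% of all genes. For falls the shares were 4.29% of members in SUMO-KD against 4.62% of all genes, and 7.86% in wild-type against 8.88% of all genes. At an unadjusted p under 0.05 there were 37 of the 140 members in SUMO-KD, against 24.1% of all genes, and 49 of the 140 members in wild-type, against 31.3% of all genes. The median log2 difference of the members was −0.01 in SUMO-KD and 0.01 in wild-type, beside −0.02 and −0.04 for all genes of those genotypes. With each array centred on its median instead, 9 members rose and 7 fell in SUMO-KD, where 5.24% of all genes rose and 5.20% fell. In wild-type 16 members rose and 11 fell with this centring, where 7.96% of all genes rose and 11.5% fell. The share of rises among all calls in wild-type was then 40.9%, beside 51.9% as deposited, and the members' median there was −0.06. Here and below, log2 differences are on the scale of log2(intensity + 32), ischemia minus sham. All 16 members called in SUMO-KD were also called in wild-type, in the same direction, which is 100% of the SUMO-KD calls and 48.5% of the wild-type calls. Over all genes, 1028 were called in both genotypes, or 77.5% of the SUMO-KD calls and 44.9% of the wild-type calls. These comparisons share no arrays, but they share 1 estimate of the spread.

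The counts depended on single arrays. In wild-type mice the 22 rises became 12 without sham pool 1, 14 without sham pool 3 and 14 without ischemia pool 3, and the 11 falls became 7 without sham pool 1 or ischemia pool 3. Of all genes, 6.71%, 7.29% and 6.93% were then called higher, in the same order. Called lower were 5.76% without sham pool 1 and 6.36% without ischemia pool 3. In SUMO-KD mice the 10 rises became 6 without ischemia pool 3, and the 6 falls became 2 without sham pool 2. Of all genes, 3.83% were called higher in the first of these omissions and 2.68% lower in the second. Without SUMO-KD ischemia pool 2, the array whose 18S signal resembled the sham arrays, 7 members rose and 4 fell in SUMO-KD. In that omission 3.98% of all genes rose and 2.17% fell. The members' counts and the shares of all genes thus moved down together in these omissions.

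The families differed in how many of their members were called. Among the 38 Usp genes, 5 rose and 1 fell in SUMO-KD, and 11 rose and 4 fell in wild-type. That was 15.8% of the family in SUMO-KD and 39.5% in wild-type, where 10.7% and 18.5% of all genes were called. Among the 27 Ube2 genes 2 rose and 2 fell in SUMO-KD, and 2 rose and 3 fell in wild-type. For the 39 Trim genes the counts were 1 rise and 0 falls in SUMO-KD, and 4 rises and 1 fall in wild-type. Fbxo genes, of which 22 were measured, had 1 rise and 2 falls in SUMO-KD and 4 rises and 2 falls in wild-type. The called shares in SUMO-KD and wild-type were 14.8% and 18.5% for Ube2, 2.56% and 12.8% for Trim, and 13.6% and 27.3% for Fbxo genes. Fbxl genes had 1 rise and 1 fall in each genotype out of 6, and 0 of the 8 Fbxw genes were called by limma in either genotype, with 1 at an unadjusted p under 0.05 in each. Family medians lay between −0.04 and 0.02 in SUMO-KD and, leaving aside Fbxl, between −0.03 and 0.04 in wild-type. The Fbxl median was −0.35 in wild-type. The 11 Usp rises in wild-type became 7 without wild-type sham pool 1, wild-type sham pool 3 or wild-type ischemia pool 1, and the 4 falls became 2 without wild-type sham pool 1 or wild-type ischemia pool 3. In SUMO-KD the 5 Usp rises became 3 without sham pool 1, sham pool 3 or ischemia pool 2, and 2 without sham pool 2 or ischemia pool 3. The 4 Trim rises in wild-type became 1 without sham pool 1 or 3 and 2 without ischemia pool 1 or 3, and the 4 Fbxo rises became 2 without sham pool 1, sham pool 2 or ischemia pool 3. The 1 Fbxl fall in wild-type became 3 without wild-type sham pool 2 and 2 without SUMO-KD ischemia pool 2. In every omission that lowered a family count here, the share of all genes called in that direction was also lower than with all arrays. The difference in called share between families was not tested.

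**Figure D1:**
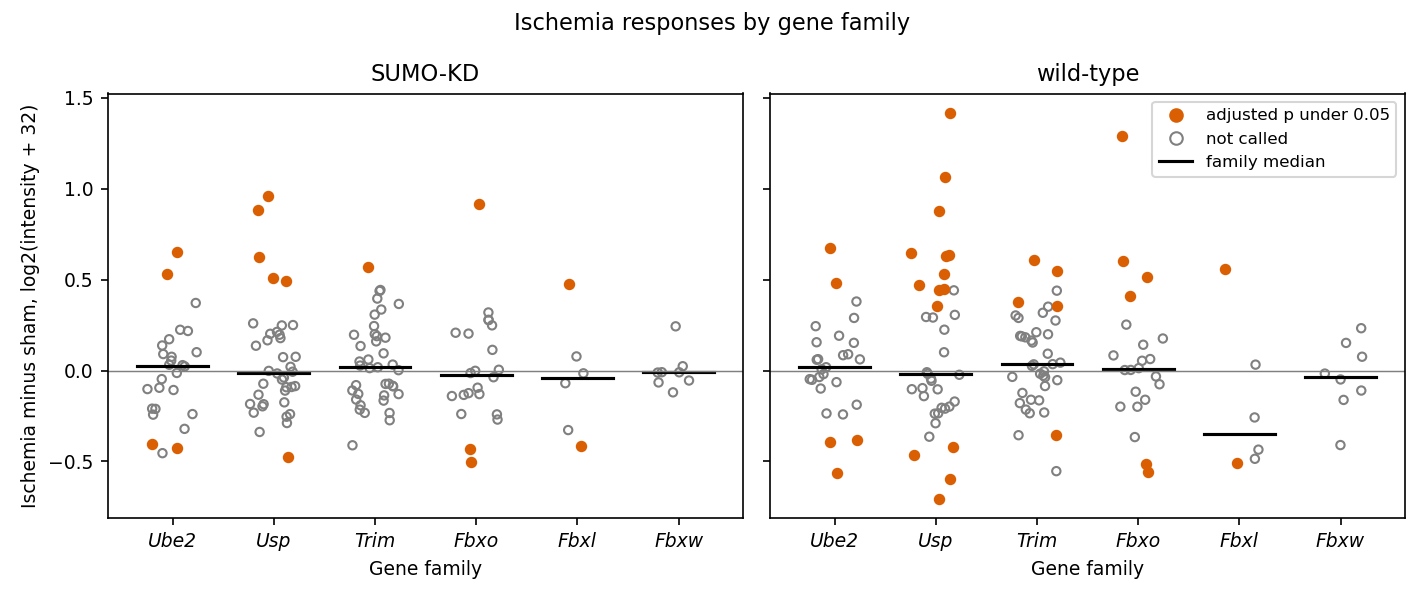
Log2 difference of ischemia minus sham for the 140 members (y axis, log2(intensity + 32) units) by gene family (x axis), in SUMO-KD mice on the left and wild-type mice on the right. Filled orange points are members called at an adjusted p under 0.05, open points are the others, and black bars are family medians; most points lie close to 0, and the called rises of Usp genes in wild-type reach 1.42.

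Among the conjugating enzymes, Ube2h had the largest rise. Ube2h, the E2 partner of the CTLH ligase complex, had 721, 692 and 692 units in SUMO-KD ischemia samples against 397, 433 and 479 in SUMO-KD sham samples. In wild-type mice it had 752, 762 and 732 units after ischemia against 454, 526 and 399 after sham surgery. The ischemia and sham samples did not overlap in either genotype. The naming rule for ischemia required such separation, here and for the genes below. Among all genes, 2280 of the 2289 wild-type calls and 1321 of the 1327 SUMO-KD calls were separated in this way. The log2 difference was 0.65 (SE 0.10, adjusted p = 0.00207) in SUMO-KD and 0.68 (SE 0.10, adjusted p = 0.00106) in wild-type. A dimmer second probe set of Ube2h gave 0.52 in SUMO-KD (adjusted p = 0.19) and 0.44 in wild-type (adjusted p = 0.226) and was not called. Ube2f, an E2 for the ubiquitin-like protein NEDD8 and not for ubiquitin itself, also rose, by 0.53 in SUMO-KD (adjusted p = 0.0416) and by 0.48 in wild-type (adjusted p = 0.0445). It had 813, 1243 and 1146 units in SUMO-KD ischemia and 691, 755 and 705 in SUMO-KD sham samples, and 1122, 967 and 1320 in wild-type ischemia and 806, 801 and 792 in wild-type sham samples. Its ischemia values were spread widely, with SUMO-KD ischemia pool 1 lowest, while the sham values were tight. Both Ube2f calls were lost in 9 of the 12 omissions of 1 array, with adjusted p-values up to 0.166 in SUMO-KD and up to 0.15 in wild-type; in SUMO-KD only the omissions of wild-type ischemia pools 2 and 3 and SUMO-KD ischemia pool 1 kept the call, and in wild-type only those of wild-type ischemia pool 2 and SUMO-KD ischemia pools 1 and 2. A further 3 dimmer Ube2f probe sets had differences of 0.66, 0.47 and 0.20 in SUMO-KD and of 0.61, 0.60 and 0.30 in wild-type, listed from the brightest, with the first 2 called in both genotypes.

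Ube2w and Ube2a fell in both genotypes. Ube2w, which can attach ubiquitin to the amino terminus of proteins, had 977, 1010 and 1086 units in SUMO-KD ischemia against 1277, 1515 and 1381 in SUMO-KD sham samples. It had 902, 990 and 1047 units in wild-type ischemia against 1485, 1476 and 1414 in wild-type sham samples, and the groups did not overlap in either genotype. The difference was −0.43 in SUMO-KD (SE 0.09, adjusted p = 0.0119) and −0.56 in wild-type (SE 0.09, adjusted p = 0.00155). Its second probe set had −0.45 in SUMO-KD (adjusted p = 0.294) and −0.25 in wild-type (adjusted p = 0.548), and both calls were lost in the mean of the probe sets (adjusted p = 0.0603 in SUMO-KD and 0.0563 in wild-type). Without SUMO-KD sham pool 2 the SUMO-KD value was −0.37 (adjusted p = 0.0505). Ube2a, a mammalian RAD6 enzyme that acts on histones and in DNA damage tolerance, differed by −0.40 in SUMO-KD (adjusted p = 0.0152) and by −0.39 in wild-type (adjusted p = 0.0108). The fall of Ube2a was seen on 1 of its 2 probe sets; the other had 0.09 in SUMO-KD and 0.10 in wild-type, and the mean of both was −0.16 (adjusted p = 0.218) and −0.15 (adjusted p = 0.198) in these genotypes. Without SUMO-KD sham pool 2 the adjusted p in SUMO-KD was 0.0556, and without SUMO-KD ischemia pool 2 it was 0.058. Ube2b, its close relative, differed by −0.09 (adjusted p = 0.583) and −0.24 (adjusted p = 0.0813) and was called in neither genotype. Ube2v2, a cofactor of the chain-building enzyme Ube2n, fell by 0.38 in wild-type (adjusted p = 0.0182) and had −0.24 in SUMO-KD (adjusted p = 0.153). Its wild-type call was lost without wild-type sham pool 1 (adjusted p = 0.0639), wild-type ischemia pool 1 (0.0521) or wild-type ischemia pool 3 (0.0669). Its dimmer second probe set had −0.15 in wild-type (adjusted p = 0.427). Ube2n itself had 0.03 in SUMO-KD and −0.06 in wild-type, not called. Ube2l6, the E2 for the interferon-induced modifier ISG15, stayed between 14.6 and 33.1 units on all arrays, near the background of the array, and was not called.

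Of the F-box genes, Fbxo33 had the largest response. Fbxo33, an F-box subunit of cullin ligases, had 2838, 2281 and 2668 units in SUMO-KD ischemia samples and 1461, 1331 and 1282 in SUMO-KD sham samples. In wild-type mice it had 3479, 3351 and 4061 units after ischemia and 1481, 1454 and 1446 after sham surgery. Each ischemia sample was above every sham sample, and each wild-type ischemia sample was above every SUMO-KD ischemia sample. The log2 difference was 0.91 (95% interval 0.68 to 1.14, adjusted p = 0.000241) in SUMO-KD and 1.29 (95% interval 1.06 to 1.52, adjusted p = 1.46e-05) in wild-type. A second Fbxo33 probe set rose by 0.76 in SUMO-KD and by 1.01 in wild-type.

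Other F-box genes moved less. Fbxl14, which targets transcription factors of the Snail family, had 246, 292 and 275 units in SUMO-KD ischemia and 178, 171 and 209 in SUMO-KD sham samples, and 315, 312 and 329 in wild-type ischemia and 187, 209 and 221 in wild-type sham samples. The ischemia samples lay above the sham samples in both genotypes, and Fbxl14 rose by 0.47 in SUMO-KD (adjusted p = 0.00958) and by 0.56 in wild-type (adjusted p = 0.0023). Fbxo6 and Fbxo17 belong to a subgroup of F-box proteins related to those that bind sugars on glycoproteins. Fbxo6 rose by 0.60 in wild-type (adjusted p = 0.0213) and had 0.25 in SUMO-KD (adjusted p = 0.387); its wild-type call was lost without wild-type sham pool 1 (adjusted p = 0.0697), wild-type sham pool 2 (0.0617) or wild-type ischemia pool 3 (0.0747). Fbxo17 rose by 0.52 in wild-type (adjusted p = 0.00754) and had 0.32 in SUMO-KD (adjusted p = 0.0928). Fbxo2, the neuronal member of that subgroup, had −0.01 in SUMO-KD and 0.00 in wild-type and was not called. The F-box genes Fbxo25, Fbxl20 and Fbxo21 fell in both genotypes. Fbxo25 had 839, 693 and 795 units in SUMO-KD ischemia and 1233, 1055 and 1049 in SUMO-KD sham samples, and 657, 651 and 620 in wild-type ischemia and 933, 942 and 1003 in wild-type sham samples. No ischemia value reached a sham value of its genotype, with differences of −0.50 in SUMO-KD (adjusted p = 0.00638) and −0.56 in wild-type (adjusted p = 0.00217). Fbxl20, which is known to target the presynaptic protein RIM1 in mouse neurons, fell by 0.41 in SUMO-KD (adjusted p = 0.0247) and by 0.51 in wild-type (adjusted p = 0.00537). Its SUMO-KD call was lost without SUMO-KD sham pool 2 (adjusted p = 0.0859), SUMO-KD sham pool 3 (0.0828) or SUMO-KD ischemia pool 1 (0.069), 2 (0.0599) or 3 (0.0556). Fbxo21 fell by 0.43 in SUMO-KD (adjusted p = 0.0364) and by 0.51 in wild-type (adjusted p = 0.011). A dim second Fbxo21 probe set had 0.03 in wild-type, and the mean of both probe sets was −0.24 there (adjusted p = 0.129). In SUMO-KD the Fbxo21 call was lost without wild-type sham pool 1 (adjusted p = 0.0535), any 1 of the SUMO-KD sham samples (0.0892, 0.0995 and 0.0863 for pools 1, 2 and 3) or SUMO-KD ischemia pool 1 (0.0985) or 3 (0.137).

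The deubiquitinase genes held the largest number of rises. Usp53, a Usp-family protein of cell junctions, had 400, 590 and 457 units in SUMO-KD ischemia and 242, 303 and 197 in SUMO-KD sham samples. In wild-type mice it had 789, 656 and 529 units after ischemia and 214, 241 and 215 after sham surgery. The groups did not overlap within a genotype, while the ischemia values of the genotypes overlapped. Usp53 rose by 0.88 in SUMO-KD (95% interval 0.50 to 1.27, adjusted p = 0.00851) and by 1.42 in wild-type (95% interval 1.03 to 1.80, adjusted p = 0.000296). Usp36, a nucleolar deubiquitinase, had 618, 691 and 703 units in SUMO-KD ischemia and 262, 384 and 350 in SUMO-KD sham samples, and 811, 597 and 870 in wild-type ischemia and 360, 382 and 290 in wild-type sham samples. Ischemia values were again above all sham values, and the rises were 0.96 in SUMO-KD (SE 0.16, adjusted p = 0.00335) and 1.06 in wild-type (SE 0.16, adjusted p = 0.0011). A dimmer second Usp36 probe set had differences of 1.31 in SUMO-KD and 1.54 in wild-type. Usp38 had 401, 373 and 393 units in SUMO-KD ischemia and 273, 248 and 271 in SUMO-KD sham samples, against 491, 384 and 564 in wild-type ischemia and 229, 242 and 259 in wild-type sham samples. Its groups did not overlap, and it rose by 0.51 in SUMO-KD (adjusted p = 0.0188) and by 0.88 in wild-type (adjusted p = 0.000517). The SUMO-KD call was lost without SUMO-KD sham pool 2 (adjusted p = 0.0697) or SUMO-KD ischemia pool 3 (0.0614). Usp2, a deubiquitinase linked to the circadian clock and to cyclin turnover, rose by 0.49 in SUMO-KD (adjusted p = 0.0329) and by 0.64 in wild-type (adjusted p = 0.00587), where its second probe set rose by 0.48.

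Usp3, Usp16 and Usp21 encode deubiquitinases that act on histones. Usp3 had 227, 187 and 212 units in SUMO-KD ischemia and 165, 164 and 180 in SUMO-KD sham samples, and 250, 201 and 232 in wild-type ischemia and 121, 150 and 131 in wild-type sham samples. It rose by 0.65 in wild-type (SE 0.10, adjusted p = 0.00151), and its difference in SUMO-KD was 0.25 (adjusted p = 0.166). The SUMO-KD groups of Usp3 did not overlap either, but lay closer together. A dimmer second Usp3 probe set rose by 0.66 in wild-type (adjusted p = 0.00113). Usp16 rose by 0.63 in SUMO-KD (adjusted p = 0.0465) and by 0.63 in wild-type (adjusted p = 0.0306). It had 383, 426 and 398 units in SUMO-KD ischemia and 238, 249 and 262 in SUMO-KD sham samples, and 457, 382 and 622 in wild-type ischemia and 290, 388 and 231 in wild-type sham samples. The SUMO-KD groups were apart, whereas wild-type sham pool 2 was above wild-type ischemia pool 2. The SUMO-KD call of Usp16 was lost without any 1 of the SUMO-KD samples (adjusted p = 0.0725 to 0.147), wild-type sham pool 1 (0.0655) or wild-type ischemia pool 1 (0.0609). Usp21 fell by 0.60 in wild-type (SE 0.10, adjusted p = 0.0019) and had −0.34 in SUMO-KD (adjusted p = 0.0537). Its values were 342, 301 and 318 units in SUMO-KD ischemia and 441, 407 and 391 in SUMO-KD sham samples, and 285, 306 and 322 in wild-type ischemia and 465, 543 and 426 in wild-type sham samples, with no overlap in either genotype. Over 7 histone deubiquitinases grouped after the values were seen (Usp3, Usp7, Usp16, Usp21, Usp22, Usp27x and Usp49), 1 rose and 0 fell in SUMO-KD and 4 rose and 1 fell in wild-type, where 9.59% of all genes rose and 8.88% fell. The grouping was made on these values, so its counts describe the 7 genes only.

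Usp1 was the only Usp gene called lower in both genotypes. Usp1, which acts on proteins of DNA repair, had 835, 786 and 856 units in SUMO-KD ischemia and 1218, 1155 and 1112 in SUMO-KD sham samples, and 837, 866 and 828 in wild-type ischemia and 1227, 1142 and 1154 in wild-type sham samples. The groups were widely separated, and Usp1 differed by −0.48 in SUMO-KD (95% interval −0.64 to −0.31, adjusted p = 0.00225) and by −0.46 in wild-type (95% interval −0.63 to −0.29, adjusted p = 0.00175). On its 2 dimmer probe sets Usp1 had −0.28 and −0.32 in SUMO-KD, not called, and −0.37 (adjusted p = 0.0444) and −0.15 (adjusted p = 0.661) in wild-type. Usp45, a deubiquitinase of a DNA repair nuclease, fell by 0.70 in wild-type (SE 0.21, adjusted p = 0.0359) and had −0.20 in SUMO-KD (adjusted p = 0.641). Its genotype difference in sham was −0.82 and did not pass (adjusted p = 0.0765), with 907, 1713 and 894 units in SUMO-KD sham and 2003, 2122 and 1861 units in wild-type sham samples, and SUMO-KD sham pool 2 stood apart from the other SUMO-KD sham samples. The ischemia values were 1063, 932 and 923 in SUMO-KD and 1202, 1393 and 1061 in wild-type. The wild-type call of Usp45 was lost without any 1 of the wild-type sham samples (adjusted p = 0.0897, 0.0925 and 0.0671 for pools 1, 2 and 3), wild-type ischemia pool 1 (0.0864), wild-type ischemia pool 3 (0.116) or SUMO-KD ischemia pool 3 (0.0502). A second Usp45 probe set fell by 0.74 in wild-type (adjusted p = 0.0255), and another, dim one had −0.17. Usp11 fell by 0.42 in wild-type (adjusted p = 0.0174) and had −0.17 in SUMO-KD (adjusted p = 0.36); its wild-type call was lost without wild-type sham pool 1 (adjusted p = 0.0617), wild-type ischemia pool 1 (0.0676) or wild-type ischemia pool 3 (0.0643). Usp13 rose by 0.53 in wild-type (adjusted p = 0.0351) and had 0.26 in SUMO-KD (adjusted p = 0.353). It was dim, with 70.5 to 88.0 units in wild-type ischemia and 26.8 to 58.2 in wild-type sham samples, and its call was lost without wild-type sham pool 1 (adjusted p = 0.117) or 3 (0.0566), any 1 of the wild-type ischemia samples (0.0599, 0.0634 and 0.111 for pools 1, 2 and 3) or SUMO-KD ischemia pool 3 (0.0502). Usp14, a deubiquitinase bound to the proteasome, had −0.05 in SUMO-KD and −0.04 in wild-type, with 95% intervals of −0.23 to 0.13 and −0.22 to 0.13.

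**Figure D2:**
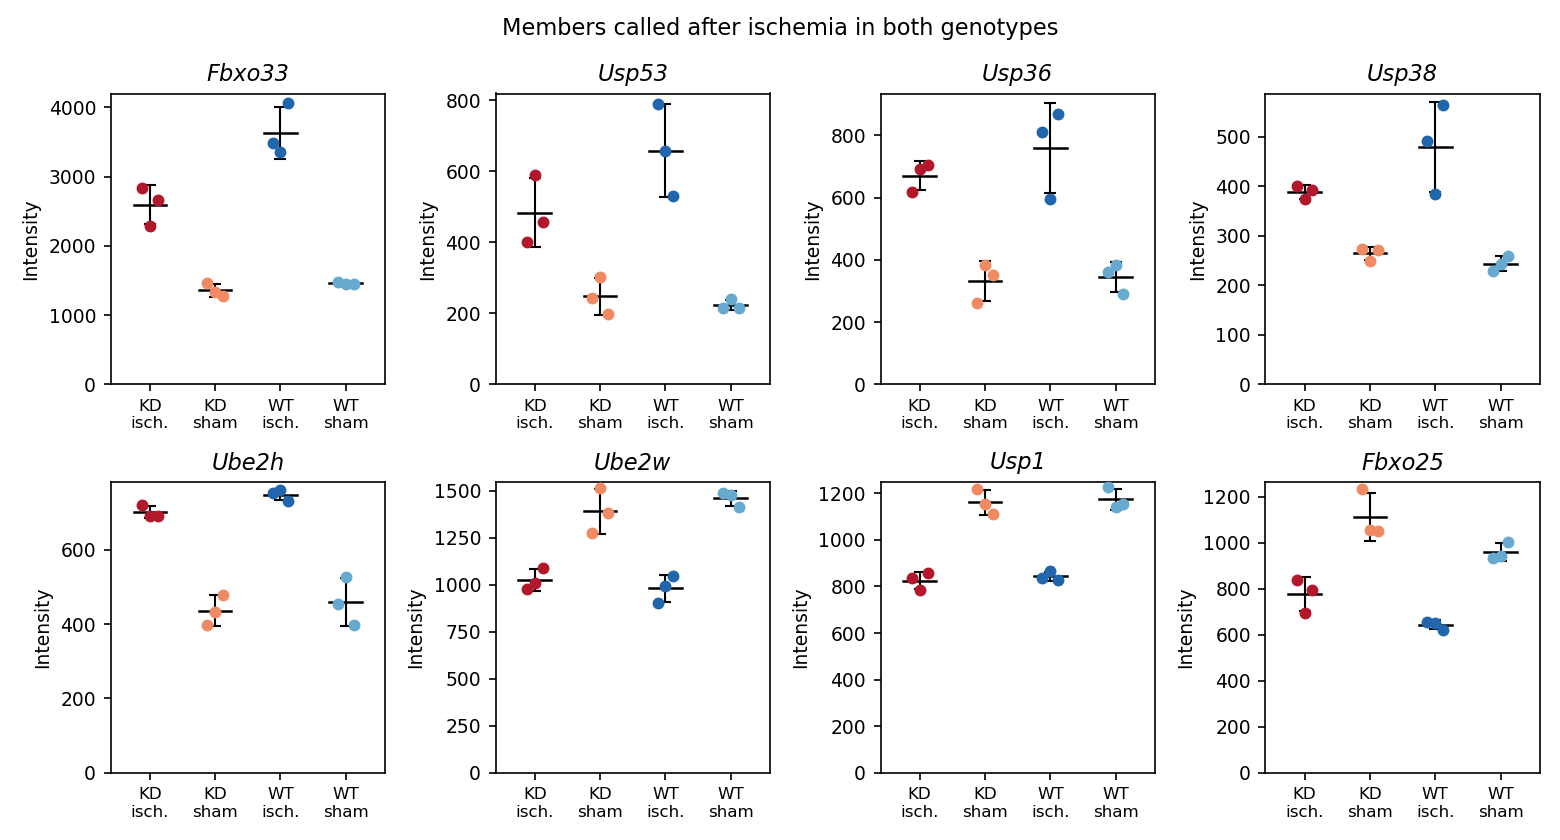
Intensity (y axis, linear array units from 0) of 8 members called after ischemia in both genotypes, in the 4 groups on the x axis (KD, SUMO-KD; WT, wild-type; isch., ischemia). Points are pools, bars and whiskers are the mean and SD of 3. In every panel the ischemia points of a genotype lie wholly above or wholly below its sham points, which the naming rule required. The genotypes do not overlap after ischemia for Fbxo33, Ube2h and Fbxo25, and of these only Fbxo33 was called between genotypes. How many of all genes are separated in this way was not counted.

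The Trim genes had few calls. Trim24, a nuclear corepressor and chromatin reader, had 438, 589 and 488 units in SUMO-KD ischemia and 328, 339 and 315 in SUMO-KD sham samples, and 346, 318 and 339 in wild-type ischemia and 238, 259 and 253 in wild-type sham samples. Ischemia samples were above sham samples in both genotypes, and Trim24 rose by 0.57 in SUMO-KD (adjusted p = 0.00432) and by 0.38 in wild-type (adjusted p = 0.0243). A dim second Trim24 probe set had −0.25 in SUMO-KD (adjusted p = 0.403), and the mean of both probe sets was not called there (0.16, adjusted p = 0.362). Trim25, a ligase that activates the viral RNA sensor RIG-I, rose by 0.55 in wild-type (adjusted p = 0.00455) and had 0.20 in SUMO-KD (adjusted p = 0.295). The second Trim25 probe set rose by 0.32 in wild-type (adjusted p = 0.0449), and a further dim one had 0.47 (adjusted p = 0.0566). Trim34a, an interferon-induced member, rose by 0.61 in wild-type (adjusted p = 0.0278) and had 0.40 in SUMO-KD (adjusted p = 0.174). The Trim34a call was lost without wild-type sham pool 1 (adjusted p = 0.0771), wild-type sham pool 3 (0.0904), wild-type ischemia pool 1 (0.0877) or wild-type ischemia pool 3 (0.085), and a second, dim probe set had 0.04 in wild-type. Other interferon-linked Trim genes were not called: Trim21 had −0.27 in SUMO-KD and 0.04 in wild-type, and Trim30a had 0.31 in SUMO-KD and 0.21 in wild-type. Trim2, a neuronal ligase for the neurofilament light chain in mice, fell by 0.35 in wild-type (adjusted p = 0.0181) and had −0.23 in SUMO-KD (adjusted p = 0.131). It had 5486, 4689 and 5179 units in SUMO-KD ischemia and 6039, 6173 and 5820 in SUMO-KD sham samples, and 6251, 6390 and 5670 in wild-type ischemia and 8344, 7641 and 7446 in wild-type sham samples. The highest values were those of the wild-type sham samples, as for the CA1 markers above. Its other 3 probe sets had −0.31 (adjusted p = 0.0215), −0.21 and 0.10 in wild-type, from the brightest to a dim one. The Trim2 call was lost with all 4 probe sets averaged (−0.19, adjusted p = 0.104), and without wild-type sham pool 1 (adjusted p = 0.0758) or wild-type ischemia pool 3 (0.0651).

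A further 5 members rose in wild-type beyond the limit of the naming rule: Usp24 (0.47), Usp47 (0.45), Usp27x (0.44), Fbxo3 (0.41) and Trim41 (0.35), with SUMO-KD values of 0.25, 0.21, 0.20, 0.20 and 0.06 in the same order, none called. They are named here after their values were seen. The 33 members called in wild-type all had the same sign in SUMO-KD, and the difference was smaller in SUMO-KD for 29 of them, with a median size of 0.40 in SUMO-KD and 0.53 in wild-type. Since these members were chosen by their wild-type values, that choice favours the larger size in wild-type. Of the 17 called in wild-type alone, 8 had an unadjusted p under 0.05 in SUMO-KD, where 24.1% of all genes did. These sets are unlike, since most of all genes were not called in wild-type. The share among all genes called in wild-type alone was not counted. The counts of sign and size were not made for the other genes called in wild-type. Whether they are particular to the members was not tested.

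**Figure D3:**
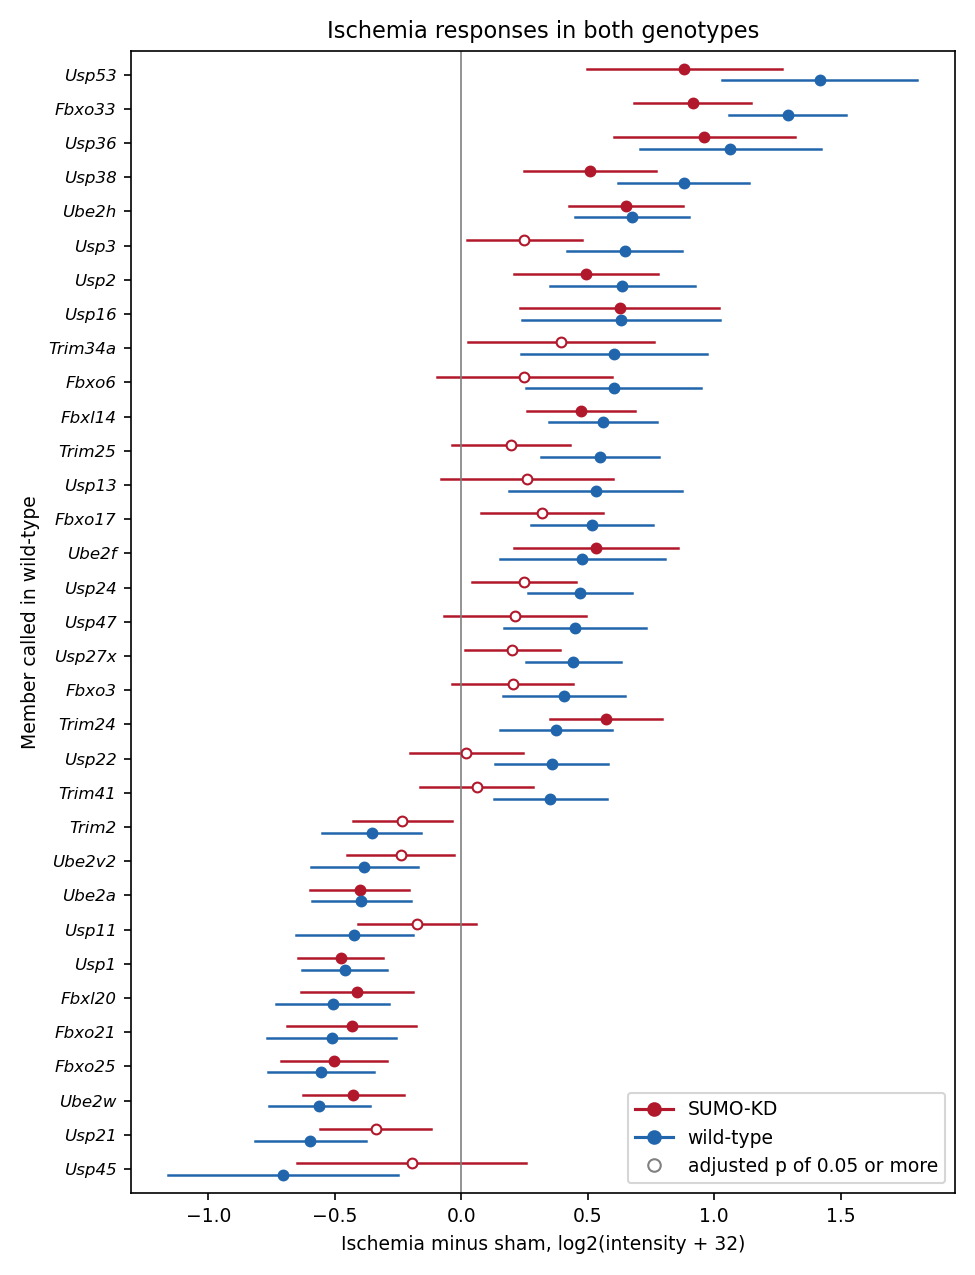
Log2 difference of ischemia minus sham (x axis, log2(intensity + 32) units) with its 95% interval for the 33 members called in wild-type (y axis), in SUMO-KD (red, upper) and wild-type (blue, lower). Filled points are called at an adjusted p under 0.05; all red points lie on the same side of 0 as the blue ones, and 16 of them are filled.

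The promoters of members picked because they rose in both genotypes are shown as a description of sequence. Cyclic AMP and AP-1 responsive genes are known to be induced after ischemia. Whether these members are among them was not tested. RefSeq promoter windows on GRCm38.p6 were matched for 104 members, with 136 windows in all, and for 9 of the 10 members that rose in both genotypes, with 12 windows. Each window below is the 250 bases before an annotated start, on the strand of the gene, written 5′ to 3′, with motif matches in capitals. The motifs, searched on both strands, were the cyclic AMP response element (TGACGTCA), a related form (TGACGCA), the AP-1 site (TGANTCA), a pair of heat shock units (GAANNTTC) and the E-box (CACGTG); no motif contains another of these. Capitals mark a match on either strand.
Ube2h, chr6:30304540-30304789, minus strand: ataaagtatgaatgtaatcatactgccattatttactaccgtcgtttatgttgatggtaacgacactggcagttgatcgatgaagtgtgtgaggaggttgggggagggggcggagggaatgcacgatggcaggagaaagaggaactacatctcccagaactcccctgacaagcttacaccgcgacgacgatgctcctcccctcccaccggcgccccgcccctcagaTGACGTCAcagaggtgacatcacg
Usp36, chr11:118290245-118290494, minus strand: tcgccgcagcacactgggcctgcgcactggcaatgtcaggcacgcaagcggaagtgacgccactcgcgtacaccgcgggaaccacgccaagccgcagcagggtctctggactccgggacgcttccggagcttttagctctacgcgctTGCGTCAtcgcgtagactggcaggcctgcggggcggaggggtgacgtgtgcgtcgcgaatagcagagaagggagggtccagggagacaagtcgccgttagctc
Usp38, chr8:81014907-81015156, minus strand: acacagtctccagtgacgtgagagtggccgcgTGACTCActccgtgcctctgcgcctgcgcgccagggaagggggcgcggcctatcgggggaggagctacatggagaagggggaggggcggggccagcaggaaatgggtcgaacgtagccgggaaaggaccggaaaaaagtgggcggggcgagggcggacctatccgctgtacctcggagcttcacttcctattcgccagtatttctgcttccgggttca
Fbxo33, chr12:59219484-59219733, minus strand: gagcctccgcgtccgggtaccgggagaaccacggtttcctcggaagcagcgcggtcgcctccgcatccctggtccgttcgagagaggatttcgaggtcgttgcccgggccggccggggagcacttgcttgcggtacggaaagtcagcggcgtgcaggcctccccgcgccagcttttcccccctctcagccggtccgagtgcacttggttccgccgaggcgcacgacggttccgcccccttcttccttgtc
The match in Ube2h was the cyclic AMP response element, 24 bases before the start, found in 1.55% of all 32851 windows and in 2.21% of member windows. Usp36 held the related form 103 bases before the start, found in 1.75% of all windows and 4.41% of member windows, and Usp38 held an AP-1 site 218 bases before the start, found in 6.75% of all windows and 5.15% of member windows. A second Ube2h window and all windows of Fbxl14, Trim24, Ube2f and Usp2 had no match, and Usp16 held an E-box, which 6.02% of all windows and 4.41% of member windows hold. Heat shock unit pairs, present in 6.69% of all windows, were found in none of the 12 windows of the members that rose in both genotypes. None of the 5 motifs was found in the Fbxo33 window, which says only that these letters are not in these 250 bases. A match is a description of sequence and not a binding site.

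Without ischemia, 4 members were higher in SUMO-KD mice and 0 were lower, by limma with SUMO-KD sham against wild-type sham. That was 2.86% of the members, where 1.5% of all genes were called higher and 2.1% in either direction. At an unadjusted p under 0.05 there were 20 of the 140 members, against 14.2% of all genes. Trim25 had 240, 249 and 306 units in SUMO-KD sham against 128, 135 and 142 in wild-type sham samples. Usp22, the deubiquitinase of the SAGA histone-modifying complex, had 116, 138 and 150 units in SUMO-KD sham against 76.9, 70.5 and 71.6 in wild-type sham samples. The genotypes did not overlap for either gene. Trim25 was higher by 0.83 (SE 0.11, adjusted p = 0.00191) and Usp22 by 0.66 (SE 0.10, adjusted p = 0.00629), and both calls held in all 12 omissions of 1 array. A second Trim25 probe set was higher by 0.78, and another, dim one had −0.01. Fbxo17 was higher by 0.55 (adjusted p = 0.0264), with 54.3, 56.8 and 68.8 units in SUMO-KD sham against 29.5, 37.3 and 25.4 in wild-type sham samples. Usp29, a gene expressed from the paternal allele in mice, was higher by 0.49 (adjusted p = 0.0498), with 203, 195 and 215 units against 133, 130 and 148. Neither gene's groups overlapped. The call of Fbxo17 was lost without wild-type sham pool 1 (adjusted p = 0.114) or 3 (0.0871), or any 1 of the SUMO-KD sham samples (0.0573, 0.057 and 0.125 for pools 1, 2 and 3), so that the 4 calls became 2 without any of these 5 arrays. That of Usp29 was lost in 10 of the 12 omissions, all but those of wild-type ischemia pools 1 and 3, with adjusted p-values up to 0.188. A dim second probe set of Usp29 had −0.07.

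Trim25, Usp22 and Fbxo17 were also among the members that rose with ischemia in wild-type. In wild-type ischemia samples Trim25 had 216, 238 and 185 units, Usp22 had 102, 91.4 and 115 units and Fbxo17 had 54.2, 54.0 and 64.4 units. For Trim25 and Usp22, all SUMO-KD sham values lay above all wild-type ischemia values, and for Fbxo17 these groups overlapped. After ischemia, SUMO-KD mice had 299, 312 and 310 units of Trim25, 125, 139 and 145 of Usp22 and 69.3, 90.2 and 89.2 of Fbxo17. Usp22 rose by 0.36 in wild-type (adjusted p = 0.0311), and its difference in SUMO-KD was 0.02 (95% interval −0.20 to 0.24). The genotype comparison in sham and the ischemia comparison in wild-type share the wild-type sham arrays, which are the low values of both. Beside this, 2 of 5 pyramidal and CA1 markers, Wfs1 and Man1a, were lower and 2 of 8 astrocyte markers, Gfap and Aqp4, were higher in SUMO-KD sham than in wild-type sham samples. The astrocyte markers summed to 22280 to 24023 units in SUMO-KD sham and 17889 to 21895 in wild-type sham samples, and their part in the 4 calls was not tested.

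**Figure D4:**
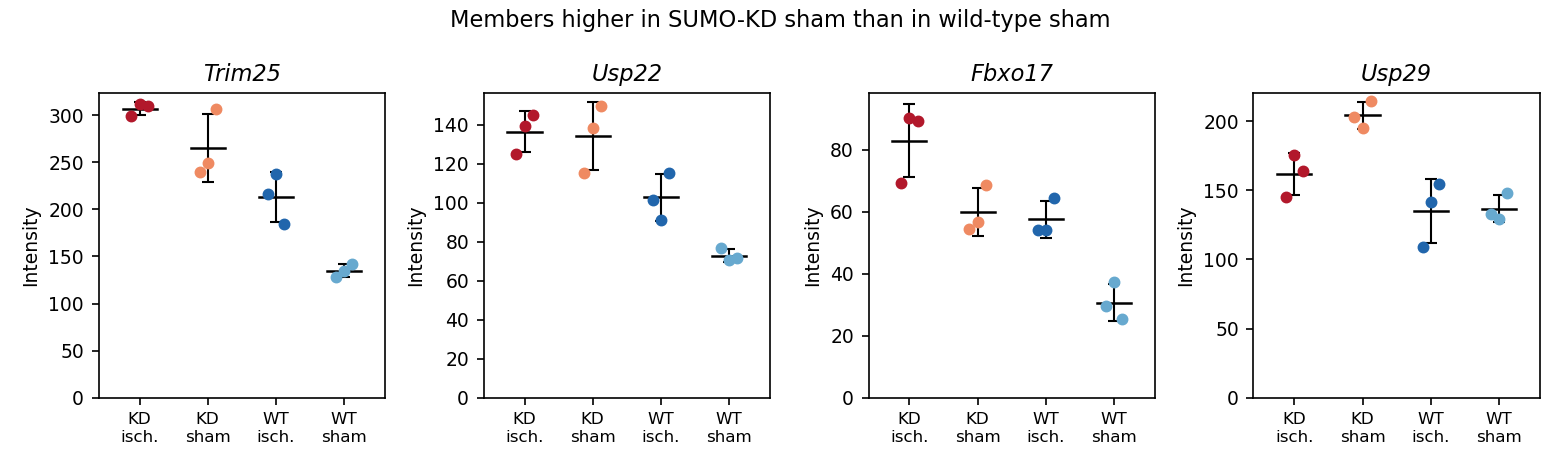
Intensity (y axis, linear array units from 0) of the 4 members higher in SUMO-KD sham than in wild-type sham samples, in the 4 groups on the x axis. Points are pools, bars and whiskers are the mean and SD of 3; the wild-type sham points of Trim25, Usp22 and Fbxo17 are the lowest in their panels, and the SUMO-KD sham points of Usp29 lie above all others.

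After ischemia, 1 member was higher and 1 was lower in SUMO-KD than in wild-type mice, together 1.43% of the members where 1.56% of all genes were called. A total of 28 of the 140 members had an unadjusted p under 0.05, against 15.5% of all genes. Trim24 was higher by 0.54 (SE 0.10, adjusted p = 0.0236), and all its SUMO-KD ischemia values were above the wild-type ones given above. Fbxo33 was lower by 0.48 on the log2 scale in SUMO-KD (SE 0.10, adjusted p = 0.0474). Both calls were close to the threshold. The Trim24 call was lost without any 1 of the wild-type ischemia samples (adjusted p = 0.0677, 0.0727 and 0.0577 for pools 1, 2 and 3) or SUMO-KD ischemia pool 2 (0.0516) or 3 (0.0817), and its dim second probe set had −0.12, so that the mean of both was 0.21 (adjusted p = 0.347). The Fbxo33 call was lost in all 12 omissions, with adjusted p-values up to 0.134 and values from −0.55 to −0.39, and the second Fbxo33 probe set had −0.38 (adjusted p = 0.0745). In sham samples Fbxo33 had −0.10 between genotypes (adjusted p = 0.728).

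Whether the ischemia response itself differed between genotypes was tested with the interaction, SUMO-KD response minus wild-type response. By limma 0 members passed, beside 0.0161% of all genes, and 6 members (4.29%) had an unadjusted p under 0.05, against 6.2% of all genes. The 5 members with the smallest p were Trim43a (0.56, 95% interval 0.14 to 0.98), Usp3 (−0.40, −0.72 to −0.07), Fbxo33 (−0.38, −0.70 to −0.05), Usp22 (−0.34, −0.65 to −0.02) and Trim25 (−0.35, −0.68 to −0.02). Their adjusted p-values were 0.718 for Trim43a and 0.796 for the other four. Trim43a was dim, with 53.4, 54.2 and 48.0 units in SUMO-KD ischemia and 18.6 to 40.7 units in the other groups. For Ube2h and Usp1 the interaction was −0.03 (95% interval −0.34 to 0.29) and −0.02 (−0.25 to 0.22). A difference of the size seen for Usp53, −0.53 with an interval of −1.08 to 0.01, was therefore not resolved with 3 pools a group.

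The rest of the ubiquitin pathway was read from lists of genes outside the 6 families. Of 5 activating enzymes (E1), 0 were called in either genotype. Of 16 genes of cullin ligases, mostly of their cores, 0 rose and 1 fell in SUMO-KD, and 0 rose and 4 fell in wild-type. These were Btrc in both genotypes and Cul7, Cul9 and Skp1 in wild-type. Btrc encodes an F-box protein, which is a substrate-binding subunit and not a core, and only its symbol lies outside the 6 families. Cul9 fell by 0.51 in wild-type and had −0.23 in SUMO-KD, and Cul7, a scaffold of F-box ligases, fell by 0.51 and had −0.33 in SUMO-KD. The wild-type call was lost in 6 of the 12 omissions for Cul9 (wild-type sham pools 2 and 3, all wild-type ischemia pools and SUMO-KD sham pool 2, adjusted p up to 0.123) and in 3 for Cul7 (wild-type sham pool 3 and wild-type ischemia pools 1 and 2, adjusted p up to 0.0995). The 4 falls became 1 without wild-type ischemia pool 1 and 2 without wild-type sham pool 2 or 3, wild-type ischemia pool 2 or SUMO-KD sham pool 2. Among 21 HECT and RBR ligases, 0 rose and 1 fell in SUMO-KD and 2 rose and 2 fell in wild-type. The 2 wild-type rises became 1 in 10 of the 12 omissions, all but those of wild-type sham pool 3 and wild-type ischemia pool 2. The 2 wild-type falls became 1 without wild-type sham pool 1 or 3 or wild-type ischemia pool 1 or 2. Rnf19a, an RBR ligase, had 791, 940 and 1237 units in SUMO-KD ischemia and 688, 752 and 741 in SUMO-KD sham samples, and 1800, 1436 and 2034 in wild-type ischemia and 672, 748 and 733 in wild-type sham samples. It rose by 1.24 in wild-type (adjusted p = 0.000327) and had 0.41 in SUMO-KD (adjusted p = 0.132), with an interaction of −0.84 that did not pass (adjusted p = 0.537). After ischemia Rnf19a was called lower in SUMO-KD than in wild-type, as 1 of the 21 genes, where 0.557% of all genes were called lower. Itch, a HECT ligase, fell by 0.56 in SUMO-KD and by 0.57 in wild-type.

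A list of 45 other ligase genes, mostly of the RING and U-box types with some cullin substrate receptors, had 11 rises and 1 fall in SUMO-KD and 14 rises and 3 falls in wild-type, where 6.08% and 9.59% of all genes rose in these genotypes. The rises included Socs2 and Socs3, which are receptors and neither RING nor U-box ligases. Socs3, a substrate receptor that restrains cytokine signalling, rose by 2.86 in SUMO-KD and by 2.28 in wild-type. Peli2, a ligase of innate immune receptor signalling, rose by 1.07 in SUMO-KD and by 1.75 in wild-type. Mdm2, Siah2, Birc3 and Traf6 were among the other rises in wild-type, and of these Mdm2 was not called in SUMO-KD. Between genotypes after ischemia, Peli1 was called higher in SUMO-KD, as 1 of the 45 genes, where 1.0% of all genes were called higher. The Peli1 call was lost without wild-type sham pool 1. The 3 falls in wild-type became 1 without any 1 of the wild-type sham pools, wild-type ischemia pool 1 or 3, or SUMO-KD ischemia pool 3. The median of this list was 0.15 in SUMO-KD and 0.12 in wild-type, beside −0.02 and −0.04 for all genes. Of 19 deubiquitinases of other families 1 rose and 1 fell in SUMO-KD, and 2 rose and 3 fell in wild-type. The 3 wild-type falls became 1 without wild-type sham pool 3 or wild-type ischemia pool 1. Otud7b, a deubiquitinase of the OTU family, fell by 0.66 in SUMO-KD (adjusted p = 0.0158) and by 0.88 in wild-type (adjusted p = 0.00208), and Stambpl1 rose by 0.58 in SUMO-KD (adjusted p = 0.00191) and by 0.48 in wild-type (adjusted p = 0.00377). Of 10 SUMO genes 0 were called after ischemia in SUMO-KD, and Sumo3 and Senp2 rose in wild-type, by 0.53 and 0.25. On the dim Sumo3 probe set that is not shared between transcripts the wild-type value was 0.12 (adjusted p = 0.466). The Senp2 call was lost in 11 of the 12 omissions, all but that of wild-type ischemia pool 2 (adjusted p up to 0.127). Beside these counts, 0 of 7 interneuron markers were called in SUMO-KD and 3 (Sst, Pvalb and Vip) were lower in wild-type after ischemia. The 7 interneuron markers together summed to 14349 to 17663 units in SUMO-KD ischemia and 14430 to 14891 in SUMO-KD sham samples. In wild-type their sums were 13647 to 16606 units after ischemia and 14893 to 15895 after sham surgery. Ischemia and sham sums overlapped in both genotypes. Of the 5 pyramidal and CA1 markers 0 were called in SUMO-KD, and Wfs1 and Pou3f1 were lower in wild-type. Of the 8 astrocyte markers Sox9 was higher in both genotypes and Gfap in wild-type, and of the 9 oligodendrocyte lineage markers Pdgfra was lower in both and Cspg4 in SUMO-KD. The 9 oligodendrocyte lineage markers together summed to 35238 to 37222 units in SUMO-KD ischemia and 32822 to 34716 in SUMO-KD sham samples. In wild-type they summed to 31094 to 34305 units after ischemia and 32799 to 38168 after sham surgery. Prox1, 1 of 5 markers of other hippocampal regions, was higher in wild-type, and 0 of the 5 were called in SUMO-KD. These 5 markers summed to 2481 to 3049 units in SUMO-KD ischemia and 3410 to 4193 in SUMO-KD sham samples, without overlap. In wild-type their sums were 2860 to 3311 units after ischemia and 2675 to 4024 after sham surgery. The differences between the genotypes in these calls and sums were not tested. Further, 4 of 9 microglial markers fell in each genotype, and they summed to 5406 to 5884 units in SUMO-KD ischemia, 6582 to 6925 in SUMO-KD sham, 5515 to 6015 in wild-type ischemia and 6319 to 7041 in wild-type sham samples. Endothelial and mural markers summed to 3903 to 4231 units in SUMO-KD ischemia, 4450 to 5251 in SUMO-KD sham, 4160 to 4384 in wild-type ischemia and 5140 to 5683 in wild-type sham samples, with 1 rise and 2 falls among 9 in each genotype. The part of these shifts in the results was not tested.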

How the data were processed

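RNA of 12 CA1 pools was hybridised to Affymetrix arrays, 1 biotin-labelled target per array, in 4 groups of 3. The deposited table holds linear intensity values, 1 per probe set and array, made by the authors; Partek 6.6 and RMA are named in the submitters' processing notes. The values are not RMA log2 output, since they run up to 24136 and their 2% trimmed mean is 500.2 on every array; which step made them is not stated in the labels. The plan had allowed for another scale, and tests were run on log2(intensity + 32), which understates the change of dim genes. The number of arrays limits the precision.

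Of 22690 probe sets, 20393 name 1 gene, 691 several and 1606 none in the platform annotation; the brightest probe set stood for each of 12394 genes. All 140 members matched RefSeq. Group means were fitted over all 12 arrays by lmFit and eBayes of limma 3.58.1, run in R 4.3.3, with two-sided p-values and Benjamini-Hochberg adjustment over all genes, and the procedure was tested on simulated data. Tables and plots were made with Python 3.11.15. No set test was run. The members, gene lists and alternatives were chosen with earlier results of these data known.

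Named were, for ischemia in wild-type, up to 12 called rises and 12 falls by size with no overlap between groups, for ischemia in SUMO-KD up to 8 each, all called members of the genotype comparisons, the 5 smallest p-values of the interaction, the E2 genes of ubiquitin-like proteins, the SUMO genes and up to 2 called genes of each other list. Genes outside this rule (Usp7, Usp14, Usp24, Usp27x, Usp47, Usp49, Fbxo2, Fbxo3, Trim21, Trim30a, Trim41, Ube2b, Ube2n, Mdm2, Siah2, Birc3, Traf6, Socs2, Peli1, Btrc, Skp1, marker genes) are given for context. Alternatives were offsets of 16 and 64 and none, averaging the probe sets of each gene, removal of shared-transcript probe sets, of dim genes (mean log2 intensity under 5), quantile normalization, median centring, a block on the replicate number, fits limited to the compared groups, trend and robust eBayes, a threshold of 0.01 and omission of each array; after an omission the pooled spread of the fit serves the 2 samples left. Every probe set by itself and no offset were added after the values were seen.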

Additional observations from a re-analysis of the deposited data

How the results depend on the processing

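Counts of called members (higher, lower) moved with single arrays and with the threshold. With 1 array left out, the SUMO-KD ischemia counts ranged from 6 to 11 and from 2 to 7, the wild-type ischemia counts from 12 to 22 and from 7 to 13, the sham genotype counts from 2 to 4 and from 0 to 1, and the genotype counts after ischemia from 0 to 2 and 0 in all; the interaction count was 0 in all 12 omissions. In these omissions 3.83% to 6.37% of all genes rose and 2.17% to 4.96% fell in SUMO-KD. In wild-type 6.71% to 9.73% rose and 5.59% to 8.88% fell. Between genotypes 0.686% to 1.51% were higher and 0.194% to 0.678% lower in sham, and 0.29% to 1.07% and 0.194% to 0.629% after ischemia. At an adjusted p under 0.01 the counts were 6 and 2 for ischemia in SUMO-KD, 12 and 5 for ischemia in wild-type, 2 higher between genotypes in sham, and 0 and 0 after ischemia. Of all genes, 3.15% rose and 1.43% fell in SUMO-KD at that threshold, and 5.32% rose and 3.39% fell in wild-type. Between genotypes in sham, 0.645% of all genes were higher. In fits on the compared groups alone, 2 members were higher in sham and 0 and 0 differed after ischemia. Of all genes, 0.839% were then higher in sham, and 0.282% were higher and 0.105% lower after ischemia. Averaging the probe sets of each gene gave 7 falls in wild-type, 1 lower member in sham and 0 higher after ischemia. The shares of all genes were 8.10%, 0.573% and 0.775% in the same order. An offset of 64 and the removal of dim genes each gave 1 lower member in sham and 2 higher after ischemia. Of all genes, 0.847% were lower and 1.22% higher with that offset, and 0.815% and 1.18% without dim genes. Quantile normalization gave 2 higher after ischemia, where 1.08% of all genes were higher. Trend and robust eBayes gave 2 higher and 2 lower in sham, where 1.72% of all genes were higher and 0.936% lower. The 1 lower member after ischemia (Fbxo33) became 0 with an offset of 16, no offset, removal of shared-transcript probe sets, median centring or the replicate block. Replicate numbers did not pair the samples: same-numbered samples deviated with correlations of −0.17 to 0.25, and the replicate block gave 9 and 6 calls for ischemia in SUMO-KD and 21 and 11 in wild-type. With that block 5.97% of all genes rose and 4.51% fell in SUMO-KD, and 9.71% rose and 8.79% fell in wild-type. Rises made up 51.9% of all calls for ischemia in wild-type, 46.1% after quantile normalization and 40.9% with median centring, where the median of all genes was −0.10. Of 56 called differences of named genes, 34 kept the call in all 12 omissions and 27 under all settings run; the cause of the losses was not tested. The Sumo3 difference in sham reversed to 0.049 (adjusted p = 0.883) with shared-transcript probe sets left out, since only a dim probe set remains, and those after ischemia and for ischemia in wild-type became −0.10 (adjusted p = 0.701) and 0.12 (adjusted p = 0.466). Dim genes limit what could be seen: 21 members had a mean log2 intensity under 5.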

Other observations

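Probe sets that list several genes stayed out of the comparisons. One of them, shared by Trim17 and the histone gene H2aw, fell by 0.98 in SUMO-KD (adjusted p = 0.000229) and by 0.91 in wild-type (adjusted p = 0.000248) in the fit over all probe sets, and the array does not tell which of the genes it reads. The 4 probe sets shared by Ube2l3 and predicted genes had differences of −0.14 to 0.16 in SUMO-KD and of 0.02 to 0.04 in wild-type, and 0 of them were called.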
